A study of Mus musculus with 12 samples.

Results

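The IL-1 family and inflammasome genes described here are 10 mouse genes, namely Il1a, Il1b, Il1rn, Il18, Il18bp, Nlrp3, Pycard, Casp1, Casp4 and Gsdmd. They were taken from the count tables by matching each Ensembl mouse gene identifier to its symbol in GENCODE mouse release M21. All 10 were found among the 46078 identifiers listed, and all 10 were among the 13837 genes that passed the filter on low counts. The RNA came from macrophages differentiated out of bone marrow over 7 days with supernatant of L929 fibroblasts, a source of macrophage growth factors. Each of 4 groups held 3 libraries, with Dicer KO and control cells given LPS, and Dicer KO and control cells given vehicle. Dicer KO cells are titled LysMcre/+;Dicerfl/fl;ApoE-/-, and control cells, from littermates, LysMcre/+;Dicer+/+;ApoE-/-. Another field of the labels calls the controls wildtype. All donors were male C57BL/6 mice that lacked Apoe, so every comparison below was made on an Apoe-deficient background. Dicer produces mature microRNAs by cutting their hairpin precursors, and LysM-Cre is a recombinase expressed from the Lyz2 locus in macrophages, neutrophils and their precursors. All cultures received diluted ethanol overnight and then phosphate-buffered saline (vehicle) or bacterial lipopolysaccharide (LPS), labelled 100 ng/ul, for 6 h. Whether the replicates of a group stem from separate mice is not labelled, and the p-values measure only how these cultures varied, which may be technical. In bulk RNA, fewer expressing cells and less RNA per cell cannot be told apart.

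IL-1 alpha, IL-1 beta and IL-18 are cytokines that start fever, endothelial activation and interferon-gamma production. Macrophages make pro-IL-1 beta and pro-IL-18 without a secretion signal, and transcription after TLR4 stimulation (priming) is a step apart from release. NLRP3 senses disturbance of the cell, recruits the adaptor ASC (encoded by Pycard) and through it caspase-1, which cleaves both precursors and gasdermin D, whose freed part forms pores in the membrane. Caspase-4, in mice often called caspase-11, binds LPS in the cytosol and also cleaves gasdermin D. Il1rn encodes the receptor antagonist that occupies the IL-1 receptor without signalling, and Il18bp encodes a secreted protein that binds IL-18. RNA counts do not measure cleavage or release.

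The start regions of the 2 IL-1 agonist genes are shown because both genes were among the 3 members with the largest LPS responses, from at most 1.13 CPM for Il1a and 20.7 CPM for Il1b in any vehicle library (CPM are scaled read counts, described below). Il1a and Il1b are neighbours on mouse chromosome 2, both on the minus strand, with 54.6 kb and no protein-coding gene between them. The 60 bases before each transcription start are printed from RefSeq (build GRCm38.p6), 5′ to 3′ on the gene's strand, with a TATAAA match in capitals.
Il1a, chr2:129309973-129310032: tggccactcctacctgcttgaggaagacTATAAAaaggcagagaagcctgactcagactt
Il1b, chr2:129371140-129371199: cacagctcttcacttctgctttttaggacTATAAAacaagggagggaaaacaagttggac
The match began 32 bases before the start of Il1a and 31 bases before that of Il1b. Motifs were searched in start-region windows, the 250 bases before each start. TATAAA on either strand was present in 12.4% of the 32851 windows of the genome. All members but Gsdmd had a window. Among them Il18 also had a match, on the opposite strand and 175 bases before its start. Matches to GAGGAA, the core recognised by PU.1, on either strand were found in the windows of Il1a, Nlrp3, Pycard and Casp1, and in 23.3% of all windows. TGANTCA, the AP-1 motif, was found in the windows of Il1a and Il1rn and in 6.75% of all. TTGCNNAA, a C/EBP motif, was found in those of Il18bp and Pycard and in 9.56% of all. An NF-kappaB motif (GGGA and TTCC with any 2 bases between), an ISRE motif (GAAA and GAAA with any 2 bases between) and the GAS motif TTCNNNGAA were searched on both strands. They were in none of the members' windows and in 1.21%, 2.98% and 7.02% of all windows. This says only that these exact letters are not in this stretch, and looser spellings of the motifs were not searched. The windows of Casp4, for example, hold ggggatttcc, a looser NF-kappaB spelling, whose share of all windows was not counted.

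Because the deleted enzyme makes microRNAs, the members' 3′ untranslated regions were searched for matches to the seed (bases 2 to 8) of 5 microRNAs of macrophages. The pair that had a match is printed from RefSeq with the seed in capitals.
mmu-miR-223-3p: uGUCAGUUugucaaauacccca
mmu-let-7a-5p: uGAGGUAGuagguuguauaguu
The matching sites are printed from the GENCODE M21 transcripts (GRCm38), 5′ to 3′ on the gene's strand, with the bases complementary to the seed in capitals and with the coordinates of those bases.
Nlrp3, miR-223-3p site, chr11:59566702-59566708: tcttgtcttcctgttAACTGACcatcccg
Pycard, miR-223-3p site, chr7:127989841-127989847: ttttaggcactaacaAACTGACagaagct
Il1a, let-7a-5p site, chr2:129300231-129300237: atagctacatctttcCTACCTCagtgggt
Pycard, let-7a-5p site, chr7:127990962-127990968: aacctgctcatacctCTACCTCtcctgtg
A miR-223-3p seed match was present in the 3′ untranslated region of 8.18% of 20979 genes, and a let-7a-5p match in 8.96%. The other 3 microRNAs searched, miR-155-5p, miR-146a-5p and miR-21a-5p, had no match in any member, against 8.27%, 11.1% and 7.14% of genes. The longest annotated region of each gene was searched. Among the members these ran from 88 bases for Casp1 to 3004 bases for Pycard, so the chance of a match differed. A match is a run of letters, and neither binding nor microRNA levels were measured here.

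Between 16172600 and 18886948 counts per library were assigned to genes. Levels are given as CPM, read counts scaled so that the libraries can be compared. Dicer1 itself was at 14.3 to 16.3 CPM in Dicer KO and 47.0 to 52.5 CPM in control with LPS, and at 19.4 to 20.1 CPM in Dicer KO and 42.6 to 45.3 CPM in control with vehicle, so transcript remained in the Dicer KO libraries. Lyz2, the locus that carries LysM-Cre, was at 16.2 to 20.6 CPM in Dicer KO and 3890 to 4280 CPM in control with LPS, and at 12.7 to 15.6 CPM and 5370 to 6040 CPM with vehicle. LysM-Cre interrupts the Lyz2 copy that carries it, and LysMcre/+ in both titles would leave an intact copy in either genotype. The Lyz2 level of the Dicer KO libraries, 215-fold lower with LPS and 405-fold lower with vehicle, goes against that title, so their Lyz2 genotype is not taken as known. The groups differed in Lyz2 as well as in Dicer1 RNA, and effects of the 2 loci cannot be told apart. Apoe, titled ApoE-/- in both genotypes, still had reads in every library. It was at 0.979 to 1.5 CPM in Dicer KO and 3.67 to 4.9 CPM in control with LPS. With vehicle it was at 4.94 to 6.14 CPM and 16.3 to 20.0 CPM. Apoe RNA was thus also lower in Dicer KO, 3.52-fold with LPS and 3.19-fold with vehicle, and the cause was not tested. The summed level of 8 macrophage markers other than Lyz2 was 9320 to 9520 CPM in Dicer KO and 8700 to 8870 CPM in control with LPS. With vehicle it was 7000 to 7850 CPM and 7420 to 8110 CPM. Of the 9 markers with Lyz2, 3 were called higher and 4 lower in Dicer KO with LPS (rule below), against 28.8% and 27.0% of all genes. With vehicle 2 were called higher and 6 lower, against 25.0% and 21.2%. The summed level of 10 neutrophil markers was 189 to 219 CPM in Dicer KO and 185 to 199 CPM in control with LPS, and 132 to 174 CPM and 150 to 190 CPM with vehicle. That of 6 dendritic cell markers moved with genotype, at 16.3 to 17.5 CPM in Dicer KO and 6.54 to 8.19 CPM in control with LPS, and at 2.16 to 4.61 CPM and 1.18 to 1.46 CPM with vehicle. In that list 4 of 6 genes, Flt3, Zbtb46, Siglech and Cd209a, stayed under 1 CPM in every library. Stromal markers summed to 33.7 to 36.7 CPM in Dicer KO and 22.6 to 24.9 CPM in control with LPS, of which Pdgfrb was the only gene above 1 CPM, and to at most 1.13 CPM with vehicle. Mast cell and basophil markers summed to at most 1.96 CPM, and every marker of B, T and NK and erythroid cells stayed under 1 CPM in every library. The part of these markers in the results below was not tested. Dicer KO vehicle replicate 2 and control vehicle replicate 3 stood apart from the other libraries of their groups, with a chi-square per degree of freedom over genes of 8.14 and 11.5, and of 9.75 and 14, against 2.27 and 2.52 between the other libraries of each group. Their deviations from the group means correlated at 0.342, the highest value between libraries of different groups. With LPS, Dicer KO replicate 1 had a chi-square of 4.02 and 4.85, against 1.31 between the other libraries of its group. It was left out only singly. For the members and the named genes called between genotypes with vehicle, that difference is given below with all libraries and again without the vehicle pair.

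All 10 members rose after LPS in both genotypes. In Dicer KO macrophages the LPS response ranged from a log2 fold change of 1.39 for Pycard to 9.42 for Il1a, with a median of 2.96 over the members against -0.10 over all genes tested. In control macrophages it ranged from 1.30 for Pycard to 6.85 for Il1b, with a median of 2.85 against -0.06. A gene was called changed at a Benjamini-Hochberg adjusted p under 0.05 in edgeR's quasi-likelihood test. By that rule 80.1% of all genes were called between LPS and vehicle in Dicer KO cells, 37.4% as higher and 42.7% as lower, and 79.1% in control cells, 38.0% as higher and 41.1% as lower. The cytokine genes Il1a and Il1b and the antagonist Il1rn had the 3 largest responses of the 10 in both genotypes. With library totals in place of TMM scaling the median of all genes shifted by -0.75 in Dicer KO and -0.52 in control cells, and all 10 members were still called higher. The higher share of all called genes was then 21.5% instead of 46.7% in Dicer KO and 26% instead of 48.0% in control cells.

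**Figure D1:**
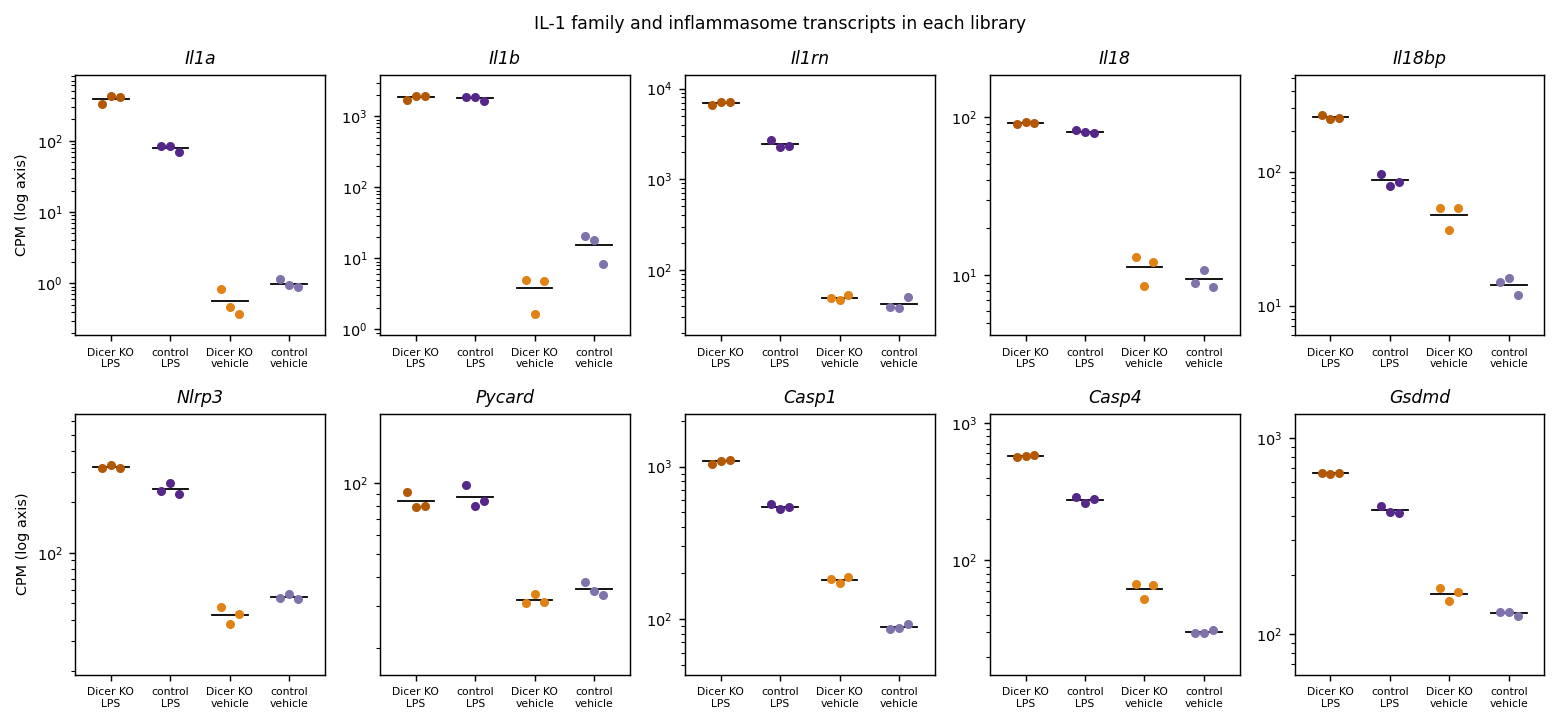
CPM (log axis) of the 10 members in each of the 12 libraries, by group, with Dicer KO LPS, control LPS, Dicer KO vehicle and control vehicle from left to right. Points are libraries and lines are group means. Il1b sits at 1720 to 1950 CPM in Dicer KO LPS and 1650 to 1890 CPM in control LPS, while Il1a separates the same libraries at 324 to 425 CPM and 70.5 to 85.6 CPM.

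**Figure D2:**
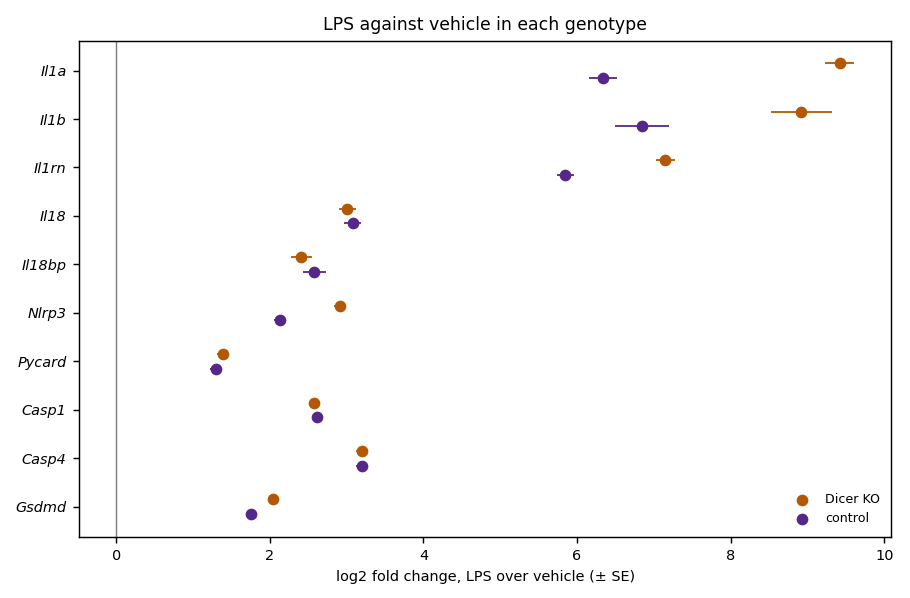
Log2 fold change of LPS over vehicle in Dicer KO (upper point of each pair) and control (lower point) for the 10 members. Bars are 1 standard error implied by the edgeR test. Il1a reached 9.42 in Dicer KO against 6.34 in control, while the pair of points of Casp4 lie at 3.20 in both.

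With LPS, 7 members were higher in Dicer KO than in control macrophages, Il1a, Il1rn, Il18bp, Nlrp3, Casp1, Casp4 and Gsdmd, and 3 were not called, Il1b, Il18 and Pycard. The median log2 fold change was 0.81 over the members and -0.03 over all genes, of which 55.8% were called, 28.8% as higher and 27.0% as lower. With vehicle, 4 members were higher in Dicer KO, Il18bp, Casp1, Casp4 and Gsdmd, 2 were lower, Il1b and Nlrp3, and 4 were not called. The median was then 0.24 over the members against 0.01 over all genes, of which 46.2% were called, 25.0% as higher and 21.2% as lower. Without the pair of vehicle libraries that stood apart, 6 members were called higher with vehicle, with Il1rn at 0.39 and Il18 at 0.34 added, and 3 were called lower, with Pycard at -0.23 added. Of all genes, 3587 were then called higher and 3030 lower with vehicle, against 3459 and 2935 with all libraries. Il18bp was then at 1.79, Casp4 at 1.18, Casp1 at 1.09, Gsdmd at 0.37, Nlrp3 at -0.29, Il1b at -1.99 and the uncalled Il1a at -0.77. With LPS 8 members were then called higher, with Il18 added, and the interaction was called for the same 5. Of all genes, 4261 were then called higher and 4063 lower with LPS, against 3983 and 3741 with all libraries. For the interaction it was 2227 higher and 2862 lower, against 2067 and 2602. The interaction, which is the LPS response in Dicer KO minus that in control, was called for 5 members, Il1a, Il1b, Il1rn, Nlrp3 and Gsdmd, each with the larger response in Dicer KO, against 33.7% of all genes called and 14.9% called in that direction, with 18.8% called in the other. The genotype comparisons and the interaction share libraries and are not independent of each other. With library totals, the median of all genes shifted by -0.35 with LPS, -0.13 with vehicle and -0.23 for the interaction. The higher share of all called genes was then 19.8% instead of 51.6% with LPS, 32.8% instead of 54.1% with vehicle and 16.3% instead of 44.3% for the interaction.

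**Figure D3:**
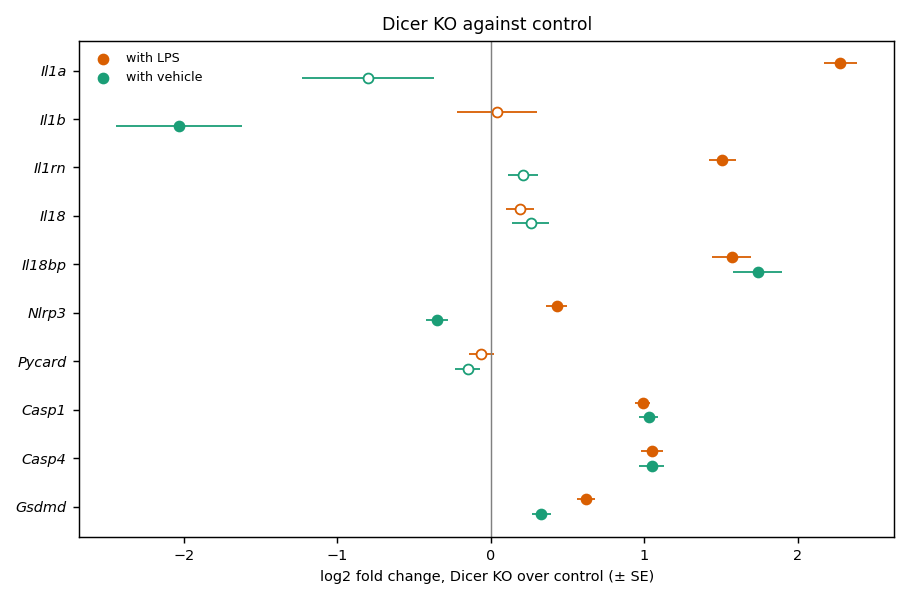
Log2 fold change of Dicer KO over control for the 10 members, with LPS (upper point of each pair) and with vehicle (lower point). Bars are 1 standard error implied by the edgeR test. Filled points were called at an adjusted p under 0.05 and open points were not, so Il1b is filled at -2.03 with vehicle and open at 0.04 with LPS.

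Il1a encodes IL-1 alpha, which is active without cleavage by caspase-1 (ENSMUSG00000027399, chr2:129299610-129309972, minus strand). It had 324, 425 and 414 CPM in Dicer KO LPS libraries, against 85.6, 84.1 and 70.5 CPM in control LPS libraries. With vehicle it had 0.838, 0.463 and 0.373 CPM in Dicer KO libraries, against 1.13, 0.937 and 0.877 CPM in control libraries. Every LPS library was above every vehicle library, and the genotypes did not overlap under either treatment. The Dicer KO over control log2 fold change with LPS was 2.28 ± 0.11 (SE implied by the edgeR test, 4.84-fold, edgeR adjusted p = 9.93e-10). With vehicle it was -0.80 ± 0.43 (edgeR adjusted p = 0.144), on 35 counts over the 3 Dicer KO libraries and 72 over the 3 control libraries, and DESeq2 gave an adjusted p of 0.0329. The LPS response was 9.42 ± 0.19 in Dicer KO and 6.34 ± 0.18 in control, and the difference between the responses was 3.08 ± 0.44 (edgeR adjusted p = 0.000142). Of the exon length of Il1a, 11.2% overlaps the opposite-strand gene Gm14023, which was itself at 87.2 to 116 CPM in Dicer KO and 18.1 to 23.4 CPM in control with LPS, and without a stated strand setting reads of the pair cannot be told apart there.

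Il1b encodes the precursor of IL-1 beta (ENSMUSG00000027398, chr2:129364570-129371139, minus strand). In LPS libraries it had 1720, 1950 and 1920 CPM in Dicer KO, against 1880, 1890 and 1650 CPM in control. In vehicle libraries it had 4.98, 1.65 and 4.76 CPM in Dicer KO, against 20.7, 18 and 8.23 CPM in control. The genotypes overlapped with LPS and did not overlap with vehicle, where the lowest library of each genotype was the one that stood apart from its group. With vehicle Il1b was lower in Dicer KO, at a log2 fold change of -2.03 ± 0.41 (4.07-fold, edgeR adjusted p = 0.00344), and at -1.99 without that pair of libraries. With LPS the difference was 0.04 ± 0.26 (edgeR adjusted p = 0.905), and it was -0.31 with library totals. The LPS response was 8.92 ± 0.40 in Dicer KO and 6.85 ± 0.35 in control, with a difference of 2.07 ± 0.49 (edgeR adjusted p = 0.0112). The larger response in Dicer KO thus went with a lower vehicle level and no called difference with LPS, whereas for its neighbour Il1a it went with a higher LPS level.

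Il18, which encodes the precursor of IL-18 (ENSMUSG00000039217, chr9:50554827-50581840, plus strand), had 90.5, 92.2 and 91.4 CPM in Dicer KO LPS libraries, against 82.0, 79.7 and 78.5 CPM in control LPS libraries. Vehicle libraries had 13.1, 8.60 and 12.1 CPM in Dicer KO and 9.02, 10.9 and 8.40 CPM in control. The genotypes overlapped with vehicle, and with LPS all Dicer KO libraries were above all control libraries by a narrow margin. Neither difference was called, at 0.19 ± 0.09 with LPS (edgeR adjusted p = 0.0816) and 0.26 ± 0.12 with vehicle (edgeR adjusted p = 0.094). The LPS value was called by DESeq2 (0.24, adjusted p = 0.0483), was called in an edgeR fit of the LPS groups alone (0.17, adjusted p = 0.0062) and without the outlying vehicle pair (0.19, adjusted p = 0.00191), and was -0.16 with library totals. The vehicle value was 0.42 without Dicer KO vehicle replicate 2 (edgeR adjusted p = 0.0013). Its LPS response was 3.01 ± 0.11 in Dicer KO and 3.08 ± 0.11 in control, with a difference of -0.07 ± 0.15 (edgeR adjusted p = 0.761).

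Both antagonist genes were called higher in Dicer KO with LPS, as was the agonist Il1a by a larger factor, whereas the agonists Il1b and Il18 were not called. Il1rn (ENSMUSG00000026981, chr2:24336853-24351494, plus strand) had 6640, 7140 and 7110 CPM in Dicer KO LPS libraries, against 2730, 2290 and 2300 CPM in control LPS libraries. Vehicle libraries had 48.4, 46.5 and 52.2 CPM in Dicer KO, against 39.1, 38.0 and 49.9 CPM in control. The genotypes were far apart with LPS and overlapped with vehicle through control vehicle replicate 3, the highest control library. The log2 fold change was 1.51 ± 0.09 with LPS (2.85-fold, edgeR adjusted p = 3.43e-10) and 0.21 ± 0.10 with vehicle (edgeR adjusted p = 0.0864), and without control vehicle replicate 3 the vehicle value was 0.35 (edgeR adjusted p = 0.00102). The LPS response was 7.15 ± 0.12 in Dicer KO and 5.85 ± 0.11 in control, with a difference of 1.30 ± 0.13 (edgeR adjusted p = 1.52e-06).

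Il18bp (ENSMUSG00000070427, chr7:102014885-102018690, minus strand) had 265, 247 and 251 CPM in Dicer KO LPS libraries, against 95.3, 78.6 and 83.9 CPM in control LPS libraries. Its vehicle values were 53.7, 36.4 and 53.1 CPM in Dicer KO, against 15, 16 and 12 CPM in control. It was higher in Dicer KO in every library under either treatment, and its lowest Dicer KO vehicle value was in the replicate that stood apart. The genotypes differed by a log2 fold change of 1.57 ± 0.13 with LPS (2.96-fold, edgeR adjusted p = 1.95e-06) and 1.74 ± 0.16 with vehicle (3.33-fold, edgeR adjusted p = 5.92e-06). Its LPS response was 2.41 ± 0.14 in Dicer KO and 2.58 ± 0.15 in control. The responses differed by -0.17 ± 0.21 (edgeR adjusted p = 0.571), and by -0.33 without Dicer KO vehicle replicate 2, which was called (edgeR adjusted p = 0.0432).

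The balance of antagonist and agonist transcripts was computed within each library as a ratio of CPM per kilobase of exon, which does not depend on how libraries are scaled. Il1rn over Il1b was 1.33, 1.26 and 1.27 in Dicer KO LPS libraries, against 0.501, 0.416 and 0.480 in control LPS libraries. With vehicle it was 3.35, 9.73 and 3.78 in Dicer KO, against 0.649, 0.726 and 2.09 in control. Per kilobase, Il1rn thus exceeded Il1b in all 6 Dicer KO libraries, and in control only in the vehicle replicate that stood apart. That order rests on the exon lengths used, 5535 bases for Il1rn (all annotated exons, alternative first exons included) and 1907 for Il1b. Without length scaling the ratio was 3.67 to 3.85 in Dicer KO LPS and 1.21 to 1.45 in control LPS libraries, and 9.72 to 28.3 in Dicer KO and 1.88 to 6.07 in control with vehicle, so Il1rn then exceeded Il1b in every library. The fold between genotypes does not depend on the lengths. Against the other IL-1 agonist the balance with LPS ran the other way. Il1rn over Il1a was 7.30, 5.99 and 6.12 in Dicer KO LPS libraries, against 11.4, 9.69 and 11.7 in control LPS libraries, and 1.69-fold lower in Dicer KO without overlap. With vehicle it was 20.6, 35.8 and 49.9 in Dicer KO, against 12.3, 14.5 and 20.3 in control, on few Il1a counts. Il18bp over Il18 was 0.998, 0.912 and 0.934 in Dicer KO LPS libraries, against 0.396, 0.336 and 0.364 in control LPS libraries. With vehicle it was 1.40, 1.44 and 1.5 in Dicer KO, against 0.565, 0.502 and 0.488 in control. Il1rn over Il1b and Il18bp over Il18 were higher in Dicer KO without overlap under either treatment. All 3 ratios were lower with LPS than with vehicle without overlap in either genotype. With LPS the Il1rn over Il1b ratio was 2.78-fold and the Il18bp over Il18 ratio 2.60-fold higher in Dicer KO. The two-sided exact permutation p was 0.1 in each of these comparisons, the smallest that 3 against 3 allows. With Il1a added to Il1b in the denominator, the ratio averaged 1.07 ± 0.0427 in Dicer KO LPS and 0.446 ± 0.0425 in control LPS libraries (SD, n = 3 each).

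**Figure D4:**
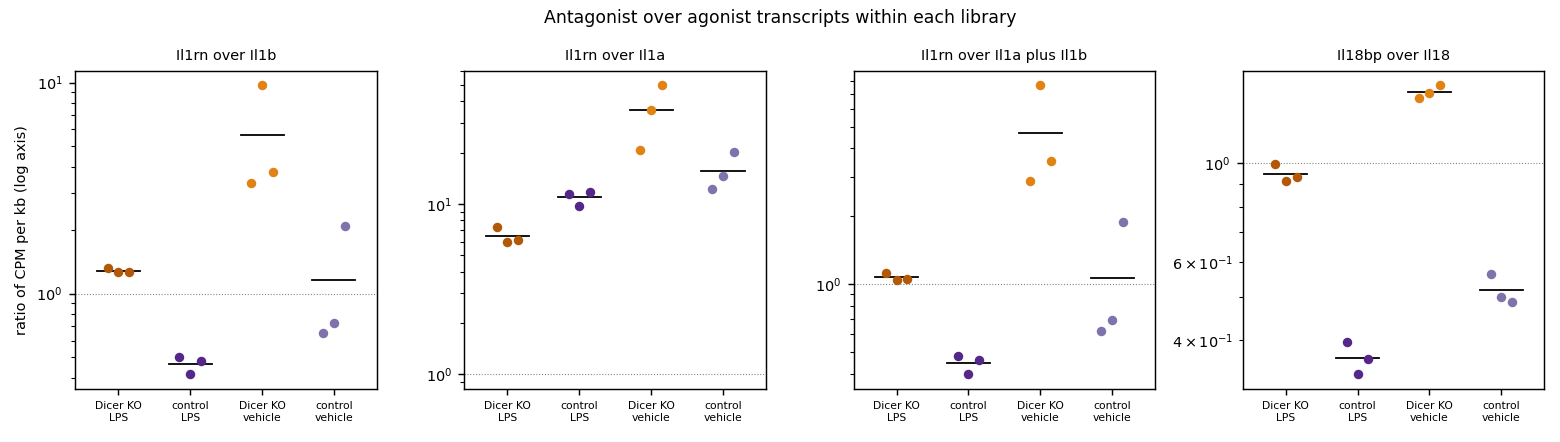
Ratio of antagonist to agonist transcripts (CPM per kilobase, log axis) in each library for Il1rn over Il1b, Il1rn over Il1a, Il1rn over the sum of Il1a and Il1b, and Il18bp over Il18, with Dicer KO left of control within LPS and then within vehicle. Points are libraries, lines are means, and the dotted line marks equal levels. Il1rn over Il1b lies at 1.26 to 1.33 in Dicer KO LPS and at 0.416 to 0.501 in control LPS, while Il1rn over Il1a lies lower in Dicer KO LPS (5.99 to 7.30) than in control LPS (9.69 to 11.7).

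Nlrp3, the sensor (ENSMUSG00000032691, chr11:59541568-59566956, plus strand), had 316, 333 and 318 CPM in Dicer KO LPS libraries, against 233, 260 and 224 CPM in control LPS libraries. Its vehicle levels were 47.8, 37.9 and 43.1 CPM in Dicer KO, against 53.8, 57.2 and 53.0 CPM in control. The order of the genotypes was thus opposite under LPS and vehicle, without overlap in either. Its log2 fold change was 0.43 ± 0.07 with LPS (edgeR adjusted p = 3.49e-05) and -0.35 ± 0.07 with vehicle (edgeR adjusted p = 0.00104). The rise with LPS was close in size to the shift of all genes between scalings, and with library totals it was 0.08 (edgeR adjusted p = 0.332). The LPS response was 2.91 ± 0.08 in Dicer KO and 2.13 ± 0.07 in control, with a difference of 0.78 ± 0.10 (edgeR adjusted p = 1.52e-05). The miR-223-3p seed match printed above lies in its 3′ untranslated region.

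Pycard, which encodes the adaptor ASC (ENSMUSG00000030793, chr7:127989708-127993867, minus strand), was the least induced of the 10. It had 91.4, 79.1 and 79.9 CPM in Dicer KO LPS libraries, against 97.9, 79.9 and 83.5 CPM in control LPS libraries. In vehicle libraries it had 30.9, 33.7 and 31.2 CPM in Dicer KO, against 37.9, 35.0 and 33.4 CPM in control. The genotypes overlapped under both treatments, and the highest library of each LPS group was replicate 1. The log2 fold change between genotypes was -0.06 ± 0.08 with LPS (edgeR adjusted p = 0.52) and -0.15 ± 0.08 with vehicle (edgeR adjusted p = 0.131). With library totals it was -0.41 with LPS and -0.28 with vehicle, and both were then called (edgeR adjusted p = 0.000101 and 0.00738). With both outlying vehicle libraries left out the vehicle value was -0.23 and called (edgeR adjusted p = 0.036). Its LPS response was 1.39 ± 0.08 in Dicer KO and 1.30 ± 0.08 in control. Pycard was the 1 member with a seed match to both microRNAs. Its 3′ untranslated region was also the longest searched, at 3004 bases against at most 1864 (Il1rn) in the other members. The share of all genes with both matches was not counted. Of the exon length of Pycard, 12.8% overlaps the opposite-strand gene Gm45205.

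Casp1 and Casp4 lie 1562 bp apart on chromosome 9, on the plus strand, and were each close to 2-fold higher in Dicer KO under both treatments. Casp1 (ENSMUSG00000025888, chr9:5298517-5307265) had 1040, 1090 and 1110 CPM in Dicer KO LPS libraries, against 568, 525 and 540 CPM in control LPS libraries. With vehicle it had 182, 173 and 187 CPM in Dicer KO, against 86.1, 87.1 and 92.3 CPM in control. No Dicer KO library overlapped a control library of the same treatment, and the libraries of a group lay close together. The log2 fold change was 0.99 ± 0.05 with LPS (1.99-fold, edgeR adjusted p = 3.97e-11) and 1.03 ± 0.06 with vehicle (2.04-fold, edgeR adjusted p = 1.27e-10). Its LPS response was 2.58 ± 0.06 in Dicer KO and 2.62 ± 0.06 in control, a difference of -0.04 ± 0.08 (edgeR adjusted p = 0.758) that became -0.26 with library totals (edgeR adjusted p = 0.00473).

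Casp4 (ENSMUSG00000033538, chr9:5308828-5336783) had 563, 579 and 582 CPM in Dicer KO LPS libraries, against 289, 263 and 280 CPM in control LPS libraries. Its vehicle values were 67.9, 52.8 and 66.5 CPM in Dicer KO, against 29.6, 29.6 and 31.3 CPM in control. As for Casp1, the genotypes did not overlap under either treatment. The log2 fold change was 1.05 ± 0.07 with LPS (2.07-fold, edgeR adjusted p = 6.94e-10) and 1.05 ± 0.08 with vehicle (2.07-fold, edgeR adjusted p = 6.72e-09). The LPS response was 3.20 ± 0.08 in both genotypes, and the interaction SE was 0.09 around a difference of 0.00 (edgeR adjusted p = 0.998). Casp12, the next caspase gene on the chromosome at 8646 bp from Casp4, was chosen for its position after its values were seen. It had 34.3, 30.0 and 27.0 CPM in Dicer KO LPS libraries, against 9.24, 9.32 and 8.50 CPM in control LPS libraries. With vehicle it had 1.35, 0.824 and 2.10 CPM in Dicer KO, against 0.283, 0.855 and 0.501 CPM in control, on 90 and 40 counts. The genotypes overlapped with vehicle and did not overlap with LPS. It too was called higher in Dicer KO, by 1.75 ± 0.16 with LPS (edgeR adjusted p = 1.4e-07) and 1.39 ± 0.36 with vehicle (edgeR adjusted p = 0.0054), and by 1.59 with vehicle without the outlying pair.

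Gsdmd, the gene of the pore-forming substrate of both caspases (ENSMUSG00000022575, chr15:75862327-75867408, plus strand), had 660, 655 and 665 CPM in Dicer KO LPS libraries, against 449, 421 and 416 CPM in control LPS libraries. With vehicle it had 171, 147 and 163 CPM in Dicer KO, against 130, 129 and 124 CPM in control. Every Dicer KO library was above every control library of the same treatment. Dicer KO exceeded control by a log2 fold change of 0.62 ± 0.06 with LPS (1.54-fold, edgeR adjusted p = 2.79e-08) and 0.33 ± 0.06 with vehicle (1.25-fold, edgeR adjusted p = 0.000146). The LPS response was 2.04 ± 0.06 in Dicer KO and 1.75 ± 0.06 in control, and the difference of 0.30 ± 0.08 (edgeR adjusted p = 0.00788) was 0.07 with library totals (edgeR adjusted p = 0.472).

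Levels of different genes were compared per kilobase of exon. With LPS in Dicer KO, Il1rn was the most abundant of the 10 at 1260 ± 50.8 CPM per kilobase, ahead of Il1b at 978 ± 63.8 and Casp1 at 723 ± 23.1 (SD, n = 3). In control LPS libraries Il1b led at 949 ± 70.4 CPM per kilobase, ahead of Il1rn at 441 ± 45.5 and Casp1 at 364 ± 14.5. The order of Il1b and its antagonist per kilobase was opposite between the genotypes, whereas by CPM without length scaling Il1rn was above Il1b in both. Il1a, at 196 ± 28.1 CPM per kilobase in Dicer KO LPS libraries, lay above Casp4 (155 ± 2.79) and Il18 (88.6 ± 0.851), whereas at 40.6 ± 4.21 in control LPS libraries it lay below both (74.8 ± 3.58 and 77.6 ± 1.70). That order too rests on the exon lengths. By mean CPM without length scaling, Il1a with LPS lay below Casp4 in Dicer KO (388 against 574) and in control (80.1 against 278). Against Il18 it was higher in Dicer KO (91.4 for Il18) and level in control (80.0). With vehicle the effector genes led in both genotypes, with Casp1 at 121 ± 4.81 and Gsdmd at 67.4 ± 5.07 CPM per kilobase in Dicer KO, and at 59.1 ± 2.24 and 53.7 ± 1.29 in control. In control vehicle libraries Pycard, Il18, Il1b, Casp4 and Il1rn had means of 7.65 to 9.33 CPM per kilobase in falling order, and neighbours in that order overlapped. Casp4, at 7.97, 7.98 and 8.44, lay below Pycard, at 9.98, 9.22 and 8.80 CPM per kilobase, without overlap. Pycard was lowest per kilobase with LPS in both genotypes, at 22.0 ± 1.81 in Dicer KO and 22.9 ± 2.5 CPM per kilobase in control. By mean CPM without length scaling it was still lowest in Dicer KO LPS libraries, at 83.5. In control LPS libraries it was then at 87.1, above Il18 (80.0), Il1a (80.1) and Il18bp (85.9), with overlapping libraries.

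The genes whose log2 CPM followed each member most closely over the 12 libraries were found among 9841 protein-coding genes. They are given as a description, since the libraries form 4 groups and many genes exceeded a Pearson r of 0.95 with each member, from 743 for Il18bp to 1711 for Gsdmd. For Il1b they were Birc3, Fcgr2b and F10 (r = 0.9983, 0.9979 and 0.9978), and for Il1a Mitf, Ext1 and Fmnl2 (r = 0.9981, 0.9976 and 0.9975). For Il18bp they were Trim30b, Nt5c3 and Pml (r = 0.998, 0.9971 and 0.9968). Those of Gsdmd included Nono and Tbc1d13 (r = 0.9991 and 0.999). Those of Il1rn were Steap4, Ppp2r1a and Tank, those of Il18 were Itgal, Fpr2 and Edn1, and those of Nlrp3 were Tgm2, Spata13 and Slc25a37. Those of Pycard were Hpcal1, Bckdhb and Wfdc21, those of Casp1 were Coa5, Usb1 and Selenot, and those of Casp4 were Rap2c, Calhm6 and Hcar2. No member was among the 3 genes closest to another member.

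Of 6 other IL-1 family ligand genes, Il36g and Il36a passed the filter on low counts. Il36g, the gene of IL-36 gamma, had 3.61, 5.11 and 5.27 CPM in Dicer KO LPS libraries, against 1.70, 1.94 and 2.11 CPM in control LPS libraries. It was higher in Dicer KO by 1.28 ± 0.20 with LPS (edgeR adjusted p = 2.33e-05) and by 2.05 ± 0.43 with vehicle (edgeR adjusted p = 0.000848), or 1.80 without the outlying vehicle pair. The vehicle value rests on 33 counts over the Dicer KO libraries and 9 over the control libraries, at means of 0.53 and 0.123 CPM. Il36a, the gene of IL-36 alpha, had 41 counts over the Dicer KO LPS libraries and 15 over the control LPS libraries, and no count in any vehicle library. Against a floor of 3 counts over a group, it was at least 21.4-fold higher with LPS than with vehicle in Dicer KO and at least 7.64-fold higher in control. Il33, Il36b, Il36rn and Il1f10 had 10 counts or fewer over all 12 libraries.

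Receptor genes were lower in Dicer KO with vehicle and higher with LPS where they were called. Of 7 receptor and decoy genes tested out of 10 listed, 5 were lower in Dicer KO with vehicle and 2 were not called, with a median of -0.70, against 21.2% of all genes called lower and a median of 0.01. With LPS 3 were higher and 4 were not called, with a median of 0.64, against 28.8% of all genes called higher and a median of -0.03. Without the outlying vehicle pair the same 5 were at -1.52 for Il1r1, -1.11 for Il1rl1, -0.69 for Il18rap, -0.63 for Il1rl2 and -0.40 for Sigirr, all still called. Il1r1, the signalling receptor of both IL-1 forms, had 6.61, 6.23 and 5.12 CPM in Dicer KO LPS libraries, against 2.29, 2.06 and 2.67 CPM in control LPS libraries. With vehicle it had 0.512, 0.412 and 0.653 CPM in Dicer KO, against 1.66, 1.71 and 0.627 CPM in control. The vehicle groups overlapped through control vehicle replicate 3, and the LPS groups did not overlap. Its log2 fold change was 1.35 ± 0.24 with LPS (edgeR adjusted p = 9.79e-05) and -1.33 ± 0.35 with vehicle (edgeR adjusted p = 0.00459), and the LPS responses differed by 2.68 ± 0.42 (edgeR adjusted p = 9.03e-05). Its LPS response in control, 0.80 ± 0.27 (edgeR adjusted p = 0.0124), was 0.47 and not called without control vehicle replicate 3 (edgeR adjusted p = 0.0512), 0.70 and not called without control LPS replicate 3 (edgeR adjusted p = 0.0565), and 0.28 with library totals.

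Il1rl2, the IL-36 receptor, and Il18rap, the accessory chain of the IL-18 receptor, showed the same crossing. Il1rl2 had 6.16, 6.91 and 5.65 CPM in Dicer KO LPS libraries, against 2.88, 4.72 and 4.34 CPM in control LPS libraries, and 2.05, 1.34 and 1.49 CPM in Dicer KO against 2.39, 3.10 and 2.51 CPM in control with vehicle. Il18rap had 42.4, 30.8 and 25.7 CPM in Dicer KO LPS libraries, against 18.4, 17.7 and 19.5 CPM in control LPS libraries, and 7.96, 5.25 and 7.51 CPM in Dicer KO against 12.9, 12.2 and 8.27 CPM in control with vehicle. In each of these comparisons the genotypes did not overlap. Their LPS responses were larger in Dicer KO, by 1.34 ± 0.28 for Il1rl2 (edgeR adjusted p = 0.00124) and 1.51 ± 0.31 for Il18rap (edgeR adjusted p = 0.00353). The vehicle differences, -0.70 for Il1rl2 and -0.68 for Il18rap, lost the call when single libraries were left out, with adjusted p up to 0.0628 and 0.129. The LPS differences, 0.64 and 0.83, were 0.29 and 0.48 and not called with library totals (edgeR adjusted p = 0.185 and 0.0579). Il18r1, the other chain of the IL-18 receptor, had 17 counts over all libraries and was not tested.

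Il1rl1, which encodes the IL-33 receptor ST2, had 2.05, 2.32 and 1.77 CPM in Dicer KO vehicle libraries, against 3.93, 4.32 and 4.30 CPM in control vehicle libraries. It was lower in Dicer KO, with a log2 fold change of -1.03 ± 0.21 (edgeR adjusted p = 0.00052) and no overlap. With LPS it was nearly lost, at 3 counts over the Dicer KO libraries and 1 count over the control libraries. Sigirr, a receptor-like inhibitor of IL-1 signalling, was lower with LPS than with vehicle in both genotypes, with log2 fold changes of -2.54 ± 0.31 in Dicer KO (edgeR adjusted p = 5.43e-07) and -2.48 ± 0.26 in control (edgeR adjusted p = 4.99e-08). Its vehicle difference between genotypes, -0.55 ± 0.19 (edgeR adjusted p = 0.0252), was -0.31 and not called without Dicer KO vehicle replicate 2 (edgeR adjusted p = 0.14), and was also not called with DESeq2 (adjusted p = 0.0795). Il1rap, the shared accessory chain, rose with LPS by 2.11 ± 0.07 in Dicer KO and 2.24 ± 0.07 in control (edgeR adjusted p = 3.19e-15 and 1.23e-15).

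Of 15 other sensor, caspase and gasdermin genes tested out of 19, 10 were higher and 1 was lower in Dicer KO with LPS, against 28.8% and 27.0% of all genes. With vehicle 5 were higher and 3 lower, against 25.0% and 21.2% of all genes. The medians were 0.63 with LPS and 0.06 with vehicle, against -0.03 and 0.01 over all genes. Without the outlying vehicle pair the vehicle difference was 0.43 for Casp8, 0.72 for Aim2 and -0.48 for Nlrp1b. Casp8, a caspase that can also cleave gasdermin D, was higher by 0.96 ± 0.06 with LPS (edgeR adjusted p = 4.02e-10) and 0.44 ± 0.06 with vehicle (edgeR adjusted p = 2.51e-05). Aim2, the sensor of cytosolic DNA, had 217, 205 and 202 CPM in Dicer KO LPS libraries, against 108, 97.6 and 109 CPM in control LPS libraries. Its log2 fold change was 0.99 ± 0.06 with LPS (edgeR adjusted p = 3.73e-10) and 0.68 ± 0.07 with vehicle (edgeR adjusted p = 2.96e-07).

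Among the genes of that list that fell after LPS, Nlrp1b, another inflammasome sensor, had 7.97, 6.53 and 7.91 CPM in Dicer KO LPS libraries, against 4.45, 4.18 and 4.84 CPM in control LPS libraries. In vehicle libraries the levels were 36.6, 27.3 and 31.1 CPM in Dicer KO, against 43.6, 50.8 and 47.9 CPM in control. Its log2 fold change between genotypes was 0.73 ± 0.16 with LPS (edgeR adjusted p = 0.000702) and -0.58 ± 0.09 with vehicle (edgeR adjusted p = 4.01e-05), and its counts are uncertain because of the close paralog Nlrp1a. Gsdme, another gasdermin gene, had 4.58, 3.45 and 3.77 CPM in Dicer KO LPS libraries, against 8.45, 8.23 and 8.81 CPM in control LPS libraries. It was the only gene of the list called lower in Dicer KO with LPS, at a log2 fold change of -1.11 ± 0.12 (edgeR adjusted p = 2.47e-07), and with vehicle the difference was -0.08 ± 0.07 (edgeR adjusted p = 0.41). With LPS, therefore, Gsdmd was higher in Dicer KO and Gsdme was lower.

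Of 22 regulators of inflammasome activation and release, all of which were tested, 10 were higher and 6 lower in Dicer KO with LPS, against 28.8% and 27.0% of all genes. With vehicle 10 were higher and 7 lower, against 25.0% and 21.2% of all genes. The medians were 0.18 with LPS and 0.15 with vehicle, against -0.03 and 0.01 over all genes. Without the outlying vehicle pair the vehicle difference was 1.55 for Trim30a, 0.35 for Panx1 and -0.27 for P2rx7. Trim30a, reported in mice as an inhibitor of NLRP3 activation, had 1400, 1410 and 1440 CPM in Dicer KO LPS libraries, against 975, 893 and 988 CPM in control LPS libraries. Vehicle levels were 427, 331 and 391 CPM in Dicer KO, against 137, 143 and 147 CPM in control. It was higher in Dicer KO by 0.57 ± 0.07 with LPS (edgeR adjusted p = 2.55e-06) and 1.43 ± 0.08 with vehicle (edgeR adjusted p = 9.93e-11), and close paralogs of the Trim30 cluster may share its reads. Ptpn22, a phosphatase that acts on NLRP3, fell after LPS, with log2 fold changes of -2.51 ± 0.07 in Dicer KO and -3.31 ± 0.07 in control (edgeR adjusted p = 5.02e-17 and 3.09e-18). It was higher in Dicer KO with LPS by 0.90 ± 0.09 (edgeR adjusted p = 9.93e-08). P2rx7, the ATP-gated channel that triggers NLRP3, was lower in Dicer KO with vehicle (-0.29 ± 0.06, edgeR adjusted p = 0.00146). After LPS it fell, with log2 fold changes of -1.94 ± 0.08 in Dicer KO (edgeR adjusted p = 3.1e-14) and -2.23 ± 0.08 in control (edgeR adjusted p = 2.66e-15). Panx1, a channel that releases ATP, was higher in Dicer KO with vehicle by 0.44 ± 0.09 (edgeR adjusted p = 0.000428). It fell after LPS, with -2.32 ± 0.11 in Dicer KO and -2.23 ± 0.11 in control (edgeR adjusted p = 4.86e-13 and 1.4e-12). Nlrc3, an NLR family gene, fell after LPS, with log2 fold changes of -3.38 ± 0.15 in Dicer KO (edgeR adjusted p = 1.28e-13) and -3.10 ± 0.14 in control (edgeR adjusted p = 2.57e-13). Mark4, a kinase that positions NLRP3 in the cell, was higher in Dicer KO with LPS by 0.23 ± 0.07 (edgeR adjusted p = 0.00889), but the value was -0.12 with library totals.

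**Figure D5:**
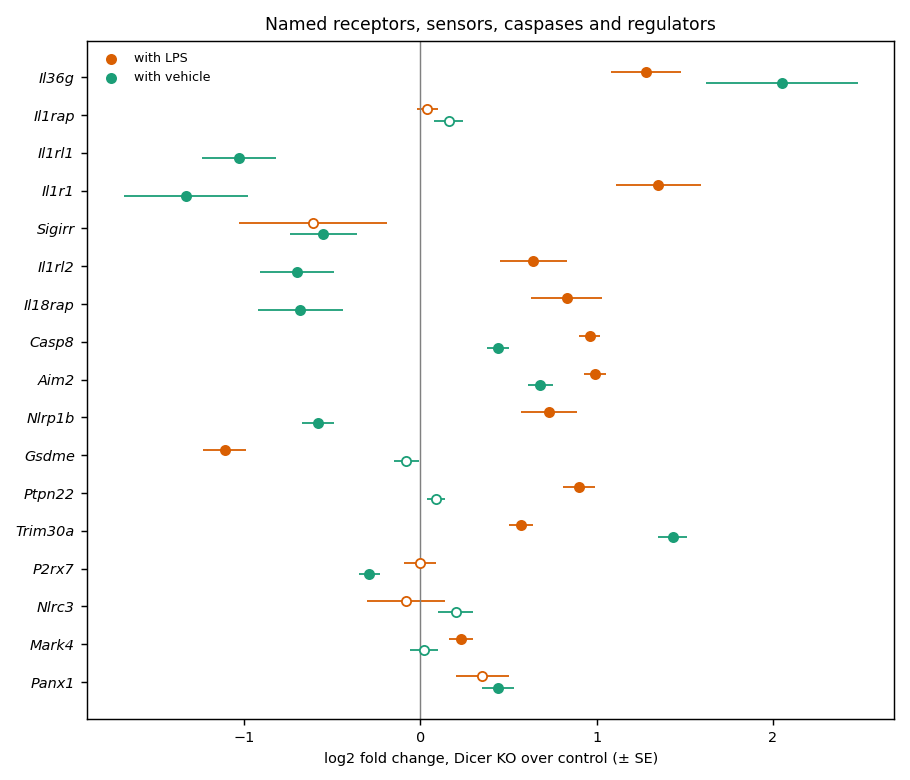
Log2 fold change of Dicer KO over control for the named ligand, receptor, sensor, caspase and regulator genes, with LPS (upper point of each pair) and with vehicle (lower point). Bars are 1 standard error implied by the edgeR test. Filled points were called at an adjusted p under 0.05 and open points were not. Il1r1 lies at 1.35 with LPS and at -1.33 with vehicle, and Gsdme is the filled LPS point at -1.11. Il36a and the LPS value of Il1rl1 are left out for low counts.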

How the data were processed

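Messenger RNA was measured in 12 libraries, 3 in each of 4 groups, with groups taken from the sample titles. Libraries were made with a kit that keeps strand, per the labels' protocols. STAR 2.5, DESeq2 (no version) and the builds mm10 and GRCm38.p5 are named, per the submitters' processing notes. The authors deposited 1 table of raw read counts per library, with a whole number for each Ensembl gene. How reads were counted, with which strand setting and annotation, is not given in the sources used here. Overlap of exons with opposite-strand genes is given above for Il1a and Pycard, and here for the other named genes that had it. It was 4.86% of exon length for Il1rap (Gm20319), 2.64% for Il18bp (Numa1), 1.31% for Il1b (Il1bos) and 0.954% for Gbp2 (Mir6381). Numa1 was at 198 to 209 CPM in control vehicle libraries, where Il18bp was at 12.0 to 16.0 CPM. Mir6381 was at 352 to 374 CPM in Dicer KO LPS and 191 to 209 CPM in control LPS libraries. Per the file contents, 41.7 to 43.3% of reads were assigned to genes. Closing lines for unassigned reads were left out of library sizes. They held 45.8 to 46.8% of reads in no gene, 9.86 to 11.6% that were not unique and 0.626 to 0.768% that were ambiguous. Of the 46078 identifiers, 45229 matched GENCODE M21, and the rest held 0.141% of the counts. IL-36 genes and Irgb10 were matched through older names in the RefSeq gene table.

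Counts were fitted with edgeR 4.0.16 in R 4.3.3 after filterByExpr, with TMM scaling (factors 0.707 to 1.309) and a robust quasi-likelihood model with 1 mean per group over all 12 libraries, and 5 comparisons were made. Tests were two-sided, with Benjamini-Hochberg adjustment over the 13837 genes within each comparison. CPM values use the TMM library sizes, and fold changes are relative to the bulk of genes, not to RNA per cell. Errors of fold changes (SE) were worked back from each test, as the absolute log2 fold change over the square root of its F statistic. They are not coefficient errors of the fit. Errors of the LPS responses need not combine into the error of their difference. Low counts limit precision for Il1a, Il36g and the receptor genes with vehicle. The procedure was tested on simulated data for Dicer KO against control with vehicle (13515 genes). It recovered 99% of 100 genes changed 2-fold and 100% of 100 changed 4-fold, with 10 calls among the unchanged genes. The simulation gave every gene the same 6.3% variation, changed only these genes, none of low count, and had no outlying library. In the data far more genes were called and vehicle libraries stood apart, so these rates need not hold here. Ratios were tested by exact permutation with scipy 1.17.1.

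The members and the gene lists were chosen with earlier results of these data known. All 10 members are reported, and from each of the 4 lists up to 6 tested genes with the smallest adjusted p in any comparison are named, with the 3 protein-coding genes most alike to each member among genes of at least 5 CPM in their highest group. Some genes that this rule takes are not reported here, though they count in the totals of their list. Casp12, Gbp2, Gbp3, Gbp5 and Irgb10 were chosen after their values were seen, as was the ratio of Il1rn to Il1a. Alternatives were DESeq2 1.42.0, its size factors, library totals, no filter, a fit of the compared groups alone, a replicate block, leaving out each library, and leaving out the 2 that stood apart.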

Additional observations from a re-analysis of the deposited data

Results flagged for a closer look

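The LPS response differed between genotypes, by the interaction term of the edgeR model, for 5 of the 10 members. Il1a had the largest difference at 3.08 on the log2 scale, with Il1b at 2.07, Il1rn at 1.30, Nlrp3 at 0.78 and Gsdmd at 0.30, each with the larger response in Dicer KO. Among the receptor genes named, the difference was 2.68 for Il1r1, 1.51 for Il18rap and 1.34 for Il1rl2. Among the sensors and caspases it was 1.31 for Nlrp1b, 0.53 for Casp8 and 0.32 for Aim2, and it was -1.03 for Gsdme, whose fall with LPS was deeper in Dicer KO. Among the regulators it was 0.80 for Ptpn22, 0.29 for P2rx7 and -0.86 for Trim30a, whose rise with LPS was smaller in Dicer KO. For the interferon-inducible GTPase genes it was -1.72 for Gbp5, -1.47 for Gbp2, -1.25 for Irgb10 and -1.16 for Gbp3, whose rises with LPS were likewise smaller in Dicer KO. The value for Nlrp1b, which also fell with LPS, stands for a smaller fall in Dicer KO. No group has more than 3 libraries, too few for a test of single outlying values gene by gene. The pair of vehicle libraries that stood apart was picked out by a chi-square over all genes.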

How the results depend on the processing

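The LPS response of all 10 members was called higher in both genotypes under every alternative run. The count of members called lower in Dicer KO with LPS was 1 with library totals (Pycard) in place of none, and for the interaction it was 1 with library totals (Casp1) and ranged from 0 to 1 (Il18bp) when single libraries were left out. Members called higher in Dicer KO with LPS numbered 6 with library totals, and 8, with Il18 added, with DESeq2, its size factors, no filter, the LPS groups alone, without the outlying vehicle pair and without either library of it, against 7. Of all genes, 1885 were called higher with library totals. In the other fits just listed it was 3940 (no filter) to 4424 (DESeq2 size factors), against 3983. With vehicle 6 were called higher and 3 lower without that pair, against 4 and 2, and with no filter 5 and 3. Of all genes, 3587 were called higher and 3030 lower without that pair, and 3096 and 3323 with no filter, against 3459 and 2935. With vehicle 3 were also called lower with library totals (Pycard), with DESeq2 and without Dicer KO LPS replicate 1 (Il1a in both). For the interaction 4 were called higher with library totals, against 5. In all, 21 values of members gained a call under some alternative. Some differences that were not called turned their direction, and the turned values were not called either. Il1b with LPS was -0.31 and Il18 with LPS was -0.16 with library totals, and leaving out single libraries gave -0.02 to 0.10 for Il1b with LPS and -0.13 to 0.03 for Pycard with LPS. For the interaction, Pycard was -0.13 with library totals, Casp1 was 0.01 with DESeq2 size factors and 0.00 with DESeq2, and Casp4 was 0.05 with DESeq2 size factors, 0.02 without the filter and 0.04 with DESeq2. Leaving out single libraries gave -0.23 to 0.05 for Il18 and -0.11 to 0.06 for Casp4. The exception is Mark4 with LPS, called at 0.23 and -0.12 with library totals. The cause was not tested. Among members 2 calls were lost, Nlrp3 with LPS and the Gsdmd interaction, both with library totals, and 36 values of other named genes lost a call under some alternative. They include Gbp5 with LPS, which was 0.61 without control LPS replicate 2 (adjusted p = 0.053) and 0.31 with library totals. The Aim2 and P2rx7 interactions were lost with library totals (0.09 and 0.06) and when single libraries were left out (adjusted p up to 0.0508 and 0.15). Deviations from the group mean correlated at -0.232 to 0.182 between same-numbered libraries of different groups, with 4 of 18 pairs over 0.1. Between libraries of other numbers it was -0.317 to 0.342, with 2 of 36 pairs over 0.1. With the replicate block all counts of members called stayed as they were, and the Casp4 interaction was 0.01. Depth limits Il1a (35 and 72 counts) and Il36g (33 and 9 counts) with vehicle, and the receptor genes.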

Other observations

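Within the list of regulators, the interferon-inducible GTPase genes stood out by their vehicle levels and were chosen after their values were seen. Guanylate-binding proteins and IRGB10 act on bacterial membranes and help expose LPS to caspase-4 in mouse macrophages. Gbp5 had 4130, 4020 and 4080 CPM in Dicer KO LPS libraries, against 2670, 2410 and 2630 CPM in control LPS libraries, and 87.9, 41.3 and 74.1 CPM in Dicer KO against 13.4, 12.8 and 12.9 CPM in control with vehicle. The genotypes did not overlap under either treatment. The Dicer KO over control log2 fold change of Gbp5 was 0.67 ± 0.20 with LPS (edgeR adjusted p = 0.0153) and 2.38 ± 0.24 with vehicle (edgeR adjusted p = 2.39e-05).

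Gbp2 was higher in Dicer KO by 0.86 ± 0.18 with LPS (edgeR adjusted p = 0.00226) and 2.33 ± 0.20 with vehicle (edgeR adjusted p = 5.99e-06), and Gbp3 by 1.41 ± 0.19 with LPS (edgeR adjusted p = 0.000129) and 2.57 ± 0.22 with vehicle (edgeR adjusted p = 7.32e-06). Irgb10 had 395, 409 and 410 CPM in Dicer KO LPS libraries, against 144, 126 and 131 CPM in control LPS libraries. Its vehicle levels were 109, 78.1 and 103 CPM in Dicer KO, against 11.3, 12.9 and 16.1 CPM in control, a log2 fold change of 2.85 ± 0.14 (edgeR adjusted p = 1.41e-08). The vehicle value of Dicer KO replicate 2, the library that stood apart, was the lowest of its group for Gbp5 and Irgb10. Without the outlying vehicle pair the vehicle differences were 2.63 for Gbp5, 2.53 for Gbp2, 2.79 for Gbp3 and 3.13 for Irgb10. Gbp genes have close paralogs, so reads may be shared or lost between copies.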
